A study of Mus musculus with 14 samples.

Results

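The transcripts described here are 10 receptor, adapter and kinase-like genes best known from natural killer (NK) cells, measured by bulk mRNA sequencing of T cells sorted from mouse spleen. They were the rows of the counts table with the symbols Styk1, Klrg1, Klrd1, Klrc1, Klrc2, Klrk1, Klrb1c, Ncr1, Tyrobp and Hcst. All 10 were found among the 24091 genes listed, and all 10 were among the 12248 genes that passed a filter on low counts. Styk1 was chosen by its high BC CML over CP CML fold change in these same libraries, so its values are given as a description and without a test. The 9 others are receptors of NK cells and their adapters, and they too were chosen with earlier results of these data known, so their counts are not independent evidence of a direction. Run on the CP CML libraries alone, the filter kept these 9 and not Styk1.

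The study modelled chronic phase (CP) and blast crisis (BC) chronic myeloid leukaemia (CML). The CP CML group was 8 Mir142+/+BCR-ABL mice and the BC CML group was 6 Mir142−/−BCR-ABL mice, with 1 library of 200000 sorted spleen T cells per mouse. Mice of both groups were CD45.2 C57Bl/6j, male and female, and between 6 and 10 weeks old. Both carried the SCLtTA/BCR-ABL transgenes, in which the SCL gene's regulatory sequence drives a tetracycline-controlled activator that switches on BCR-ABL, and tetracycline had been withdrawn for 3 weeks (tet-off). The groups differed by the loss of both copies of Mir142, which was absent from every cell of the mouse and not from T cells alone, and mice without BCR-ABL are not part of the comparison. The surface markers used to sort the T cells of these libraries are not stated. The study describes gating on single, DAPI-negative cells for its flow cytometry, and its metabolomics experiment sorted spleen T cells as CD3+. The sex of each mouse was not in the labels. The column names carry a number that differs between the groups, so whatever that number stands for cannot be told apart from genotype.

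Each library held between 15703702 and 19914531 counted reads. The deleted gene Mir142 had 302 to 650 reads in CP CML and 0 in each BC CML library, as labelled. The T cell markers Cd3d, Cd3e, Cd3g, Cd2, Cd5, Cd6, Cd28, Lat and Thy1 summed to between 3192 and 3469 CPM (reads per 1000000 counted reads) in CP CML and between 4141 and 4452 CPM in BC CML. BC CML mouse 2 stood apart: its summed γδ T cell markers (Sox13, Blk and Cd163l1, 3 of 8 considered) reached 148 CPM against at most 45.5 CPM in the other BC CML mice, and the values of genes for which it lay far above the rest of its group are given with and without it. CPM values were scaled by the trimmed mean of M-values (TMM) throughout. A log2 fold change is BC CML over CP CML with the standard error (SE) of the fit, and every adjusted p is from the edgeR quasi-likelihood test with Benjamini-Hochberg adjustment over all genes of the fit, which are the 12248 unless a mouse is left out.

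NK-type receptors are surface proteins that set the threshold at which a killer lymphocyte responds. Most belong to the killer lectin-like receptor family, most of whose mouse genes lie side by side on chromosome 6, and they are also found on subsets of T cells, mainly CD8 memory and effector cells, γδ T cells and NKT cells. Inhibitory members carry a phosphatase-recruiting motif in their own tail. Activating members have no signalling motif of their own and depend on small membrane adapters, such as those encoded by Tyrobp (DAP12) and Hcst (DAP10).

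The 2 mature strands of the deleted microRNA are shown because they define the sites that could be searched for in the members. They are taken from RefSeq on GRCm38.p6, the same build as mm10, with the seed (bases 2 to 8) in capitals.
mmu-miR-142a-5p, chr11:87756867-87756887, plus strand: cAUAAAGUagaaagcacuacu
mmu-miR-142a-3p, chr11:87756903-87756925, plus strand: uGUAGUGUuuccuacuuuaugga
The longest annotated 3′UTR (GENCODE vM21) of each of the 10 members, from 94 bases for Hcst to 2463 bases for Klrk1, was searched on the transcript strand for the 8-base matches ACACTACA (3p) and ACTTTATA (5p) and for the 7-base matches within them, without the first or the last base. None of the 10 held an 8-base match, which 3.04% (3p) and 5.22% (5p) of 11509 tested genes with a 3′UTR held. A 7-base match was found in 1 of the 10, Klrk1, at base 2167 of its 3′UTR, and the 7-base match ACTTTAT was present in 15.9% of the 3′UTRs of tested genes. The other 7-base matches searched were present in 15.3% (CTTTATA), 6.96% (ACACTAC) and 8.64% (CACTACA) of them. Absence of a match says only that these letters were not in these 3′UTRs. The Klrk1 match is shown in capitals within the 30 bases around it.
Klrk1, chr6:129610601-129610630, minus strand: ctaccatcaacACTTTATtttataagtcta

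Styk1 (serine/threonine/tyrosine kinase 1) encodes a membrane protein with a kinase-like domain, and lies at the edge of the killer lectin-like receptor cluster (chromosome 6, 131299144 to 131316398, minus strand, mm10). In CP CML it was close to the detection limit, with a lowest value of 0.183 CPM, a median of 0.419 CPM and a highest value of 0.735 CPM, or 3 to 12 reads per mouse. In BC CML the lowest value was 34.6 CPM, the median 44.7 CPM and the highest 68.7 CPM, or 639 to 1103 reads. The lowest BC CML value exceeded the highest CP CML value by 33.9 CPM. The means were 0.397 ± 0.178 CPM (SD, n = 8) and 47.8 ± 11.5 CPM (SD, n = 6), a log2 fold change of 6.88 ± 0.20 (SE), or 6.75 without BC CML mouse 2, the highest. This placed Styk1 at rank 5 of the tested genes, between Fam163b (8.62) and Klra8 (6.73), a killer lectin-like receptor that was not among the members.

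Of the 9 other members, 8 rose in BC CML and 1, Hcst, fell. Across all tested genes 32.6% were higher and 32.7% lower at the same threshold, 65.2% in all, so that passing the test was common in this comparison. A log2 rise of 1 or more was less common, at 10.1% of tested genes, and 7 of the 9 members showed it. The same 7 had all BC CML values above all CP CML values, as did 19.3% of tested genes, whereas 0 of the 9 had every BC CML mouse below, as did 17.6%. The median log2 fold change of the 9 was 1.56, against -0.01 over all tested genes, and 1.23 with the mean myeloid marker level added to the model (the myeloid covariate). With this covariate 2165 of the 12248 tested genes were called higher and 2209 lower. In bulk RNA a higher share of cells with a transcript and more of it per cell cannot be told apart.

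**Figure D1:**
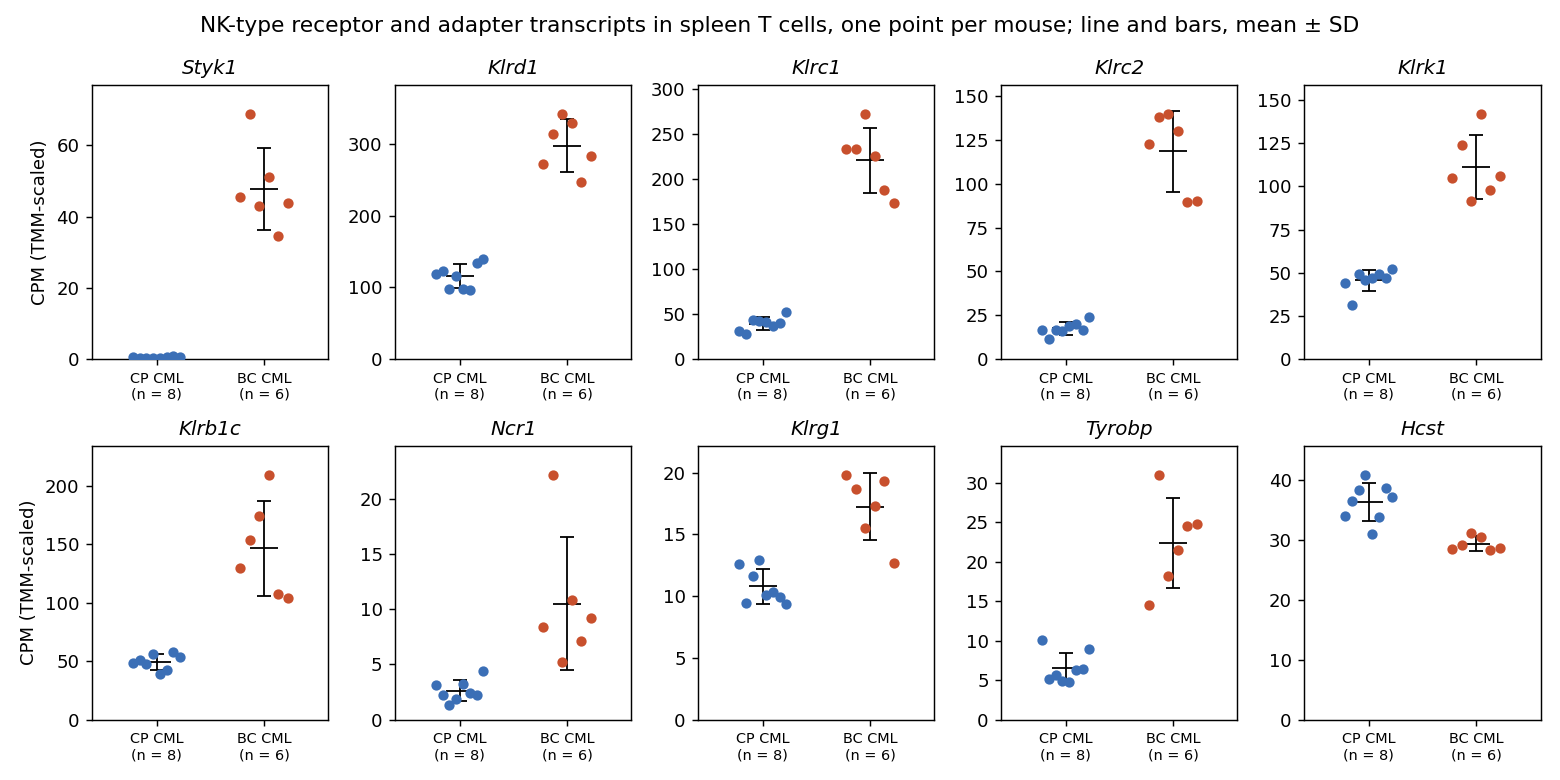
Level of each member in every mouse, as TMM-scaled CPM (vertical axis from 0, a separate scale for each gene), with 8 CP CML mice in blue and 6 BC CML mice in orange, and mean ± SD in black. The BC CML points lie above all CP CML points for every gene except Klrg1 and Hcst, where the groups overlap.

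The heterodimer of CD94 with an NKG2 chain binds the non-classical class I molecule Qa-1. Klrd1 encodes CD94, the shared subunit. It had a lowest value of 96.3 CPM, a median of 117 CPM and a highest of 139 CPM in CP CML, and 247, 298 and 341 CPM in BC CML. The groups were apart by 108 CPM, and Klrd1 rose by a log2 fold change of 1.37 ± 0.10 (SE, quasi-likelihood adjusted p = 4.82e-09). Klrc1 encodes NKG2A, the inhibitory partner. Its CP CML mice ran from 28.3 CPM through a median of 40.8 CPM to 51.8 CPM, and its BC CML mice from 173 CPM through 229 CPM to 272 CPM. Klrc1 rose by 2.48 ± 0.13 on the log2 scale (quasi-likelihood adjusted p = 2.64e-10), again without overlap. Klrc2 encodes NKG2C, the activating partner. Its lowest, median and highest values were 11.6, 16.5 and 24.1 CPM in CP CML and 89.6, 127 and 140 CPM in BC CML. Klrc2 rose by 2.76 ± 0.15 on the log2 scale (quasi-likelihood adjusted p = 4.77e-10), with the lowest BC CML mouse 65.5 CPM above the highest CP CML mouse.

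The NKG2 chains were higher relative to their shared subunit in BC CML. The ratio of Klrc1 to Klrd1 reads lay between 0.230 and 0.445 in the CP CML mice and between 0.612 and 0.861 in the BC CML mice. The division of reads among the NKG2 genes overlapped between groups: the share of Klrc1 in the reads on Klrc1, Klrc2 and Klrc3 was 64.9% ± 3.15 (SD, 8 CP CML mice) and 59.4% ± 2.40 (SD, 6 BC CML mice), and that of Klrc2 was 28.7% ± 2.42 and 31.7% ± 1.32. These genes are close copies. Of the windows of 101 bases, the read length, in the longest coding transcript, 15.6% in Klrc1 and 12.5% in Klrc2 were identical to a window of another Klrc gene, so the division between them is less certain than their sum.

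Klrk1 encodes NKG2D, an activating receptor for stress-induced ligands. Its values ran from 31.4 CPM through a median of 46.8 CPM to 51.9 CPM in CP CML, and from 91.8 CPM through 106 CPM to 142 CPM in BC CML. Klrk1 rose by 1.28 ± 0.11 on the log2 scale (quasi-likelihood adjusted p = 4.83e-08), and no mouse overlapped. Klrb1c encodes NK1.1, the activating receptor used to mark NK and NKT cells in C57BL/6 mice. It had values of 38.9, 49.9 and 58.2 CPM (lowest, median, highest) in CP CML and 104, 142 and 209 CPM in BC CML. Klrb1c rose by 1.56 ± 0.15 on the log2 scale (quasi-likelihood adjusted p = 5.69e-07), with the groups apart by 45.9 CPM. As listed, Klrb1c overlaps Klrb1b on the same strand from 128813706 to 128826315 of chromosome 6, and 12.5% of its windows of 101 bases were shared with another gene, mostly a predicted gene (Gm44511).

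Ncr1 encodes NKp46, an immunoglobulin-like activating receptor that is among the most NK-restricted genes of the set. It was the second lowest member in CP CML, at 1.38 CPM (lowest), 2.32 CPM (median) and 4.40 CPM (highest), and reached 5.25, 8.82 and 22.1 CPM in BC CML. The groups did not overlap but lay only 0.845 CPM apart, and the highest value was that of BC CML mouse 2. Ncr1 rose by 2.01 ± 0.31 on the log2 scale (quasi-likelihood adjusted p = 3.43e-05) and by 1.65 without that mouse. With the myeloid covariate the estimate was 0.94 and the call was lost (quasi-likelihood adjusted p = 0.196).

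Klrg1 encodes an inhibitory receptor for cadherins that marks terminally differentiated effector T cells. It had values of 9.37, 10.2 and 12.9 CPM (lowest, median, highest) in CP CML and 12.7, 18.0 and 19.8 CPM in BC CML. The lowest BC CML mouse, mouse 6, fell within the CP CML range. Klrg1 rose by 0.67 ± 0.10 on the log2 scale (quasi-likelihood adjusted p = 2.18e-05), the smallest change among the receptors that are members. Its level relative to Cd8b1, the CD8β chain, overlapped between groups, whereas the ratios of Klrd1 and Klrk1 to Cd8b1 did not. The Klrd1 to Cd8b1 ratio was 0.267 ± 0.051 (SD, 8 CP CML mice) and 0.652 ± 0.055 (SD, 6 BC CML mice), and the Klrk1 to Cd8b1 ratio was 0.105 ± 0.013 and 0.246 ± 0.049. Against Cd8a, the CD8α chain, the groups were closer, with a Klrd1 to Cd8a ratio of 0.169 ± 0.034 and 0.236 ± 0.016, and the highest CP CML mouse (0.217) lay just below the lowest BC CML mouse (0.220). Cd8b1 did not pass the test (log2 fold change 0.07 ± 0.06, quasi-likelihood adjusted p = 0.352), Cd8a rose by 0.87 ± 0.08, and Cd4 fell by 0.73 on the log2 scale.

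The adapters moved in opposite directions. Tyrobp encodes DAP12, the ITAM-bearing adapter of NKG2C and several Ly49 receptors, which is also abundant in myeloid cells. Its values were 4.84, 6.02 and 10.1 CPM (lowest, median, highest) in CP CML and 14.5, 22.96 and 31.0 CPM in BC CML. Tyrobp rose by 1.77 ± 0.19 on the log2 scale (quasi-likelihood adjusted p = 6.99e-07) without overlap, and by 1.66 without BC CML mouse 2, its highest. With the myeloid covariate it was 0.99 (quasi-likelihood adjusted p = 0.0181). Hcst encodes DAP10, the adapter that carries NKG2D to the surface. Its values were 31.1, 36.9 and 40.8 CPM in CP CML and 28.3, 28.9 and 31.2 CPM in BC CML. Hcst fell by 0.30 on the log2 scale (SE 0.06, quasi-likelihood adjusted p = 1.68e-04), with the highest BC CML mouse just inside the CP CML range, and the call was lost with the myeloid covariate (log2 fold change -0.18, quasi-likelihood adjusted p = 0.199).

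Within each mouse, the receptor gene Klrk1 therefore stood higher against the adapter gene Hcst in BC CML. Tyrobp, the other adapter gene among the members, rose by more than Klrk1 (log2 fold change 1.77 against 1.28), and the ratio of Klrk1 to Tyrobp was not computed. The ratio of Klrk1 to Hcst reads was between 0.860 and 1.51 in CP CML and between 2.94 and 4.65 in BC CML. The ratio of Tyrobp to Hcst was between 0.119 and 0.297 in CP CML and between 0.507 and 1.06 in BC CML. The ratio of Tyrobp to Fcer1g, the FcRγ adapter used by NK1.1 and NKp46, overlapped between groups, at 0.811 ± 0.155 (SD, n = 8) and 0.835 ± 0.064 (SD, n = 6). Tyrobp and Hcst lie next to each other on chromosome 7, on opposite strands with 132 bases between them as listed, and neither shared a window of 101 bases with another gene.

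Markers of several other cell types moved with the members. Of the 9 T cell markers 6 were also called higher, as were 32.6% of all tested genes. The 11 myeloid markers (Lyz2, Csf1r, Itgam, Cd14, Csf3r, S100a8, S100a9, Elane, Mpo, Fcgr3 and Fcer1g) summed to between 74.9 and 454 CPM in CP CML and between 562 and 1383 CPM in BC CML, and 10 of the 11 rose, Cd14, Elane and Mpo among them having passed the filter through BC CML alone. Of the 12 NK markers listed (Klra4, Klra8, Klra9, Klre1, Klri1, Klri2, Klrb1f, Itga2, Sh2d1b1, Cma1, Gzma and Eomes), 10 were tested and all 10 of these rose (Klra8 and Sh2d1b1 having passed the filter through BC CML alone), and their sum lay between 110 and 162 CPM in CP CML and between 405 and 543 CPM in BC CML. Of these 12, 9 are also in another list used here, and Gzma and Eomes are also expressed by T cells. Klra4 had 0 reads in every mouse, and Itga2 (CD49b), Sh2d1b1 and Cma1 together lay between 8.05 and 15.4 CPM in CP CML and between 12.9 and 17.5 CPM in BC CML. The 3 γδ T cell markers at hand summed to between 13.8 and 21.7 CPM in CP CML and between 25.3 and 148 CPM in BC CML, so that each BC CML mouse was above each CP CML mouse. Of these markers Cd163l1 rose by 2.34 ± 0.38 on the log2 scale (quasi-likelihood adjusted p = 1.26e-04), or by 1.72 without BC CML mouse 2, and Sox13 and Blk did not pass. With the myeloid covariate the log2 fold change of Cd163l1 was 2.06 with an SE of 0.80, and it did not pass (quasi-likelihood adjusted p = 0.0659). Of the 6 B cell markers, 5 rose, with sums from 54.7 to 163 CPM in CP CML and from 95.9 to 476 CPM in BC CML. Of the 2 tested basophil and mast cell markers 1 rose and of the 4 tested erythroid markers 1 rose. The part of these cells in the members' levels was not tested. The myeloid covariate was built from the 11 myeloid markers alone, and its values move with the groups, so it cannot decide that part. With this covariate in the model 7 of the 9 members, all but Ncr1 and Hcst, kept their calls and their direction.

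**Figure D2:**
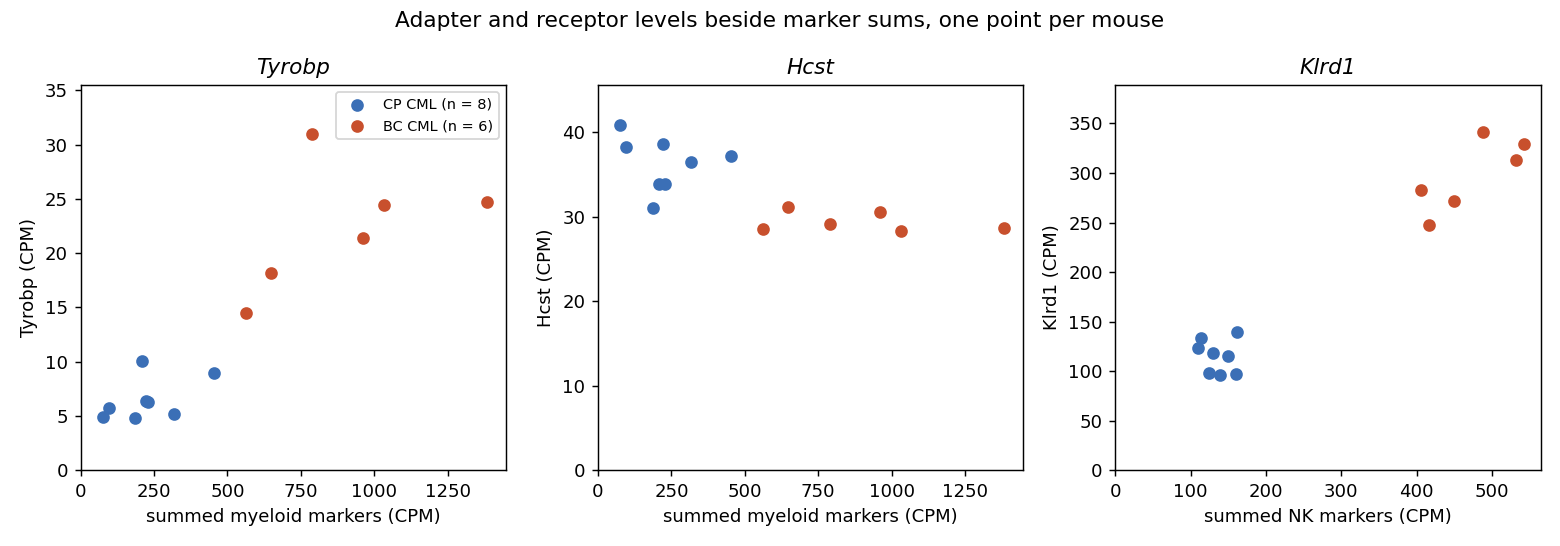
Tyrobp and Hcst against the summed myeloid markers, and Klrd1 against the summed NK markers, in CPM with all axes from 0 and 1 point per mouse (8 CP CML in blue, 6 BC CML in orange). The groups lie apart on both marker sums, with myeloid sums up to 454 CPM in CP CML and from 562 CPM in BC CML, while Hcst is the only plotted gene with lower BC CML values.

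Levels of different genes were compared as RPKM, which is CPM per kilobase of gene, from the gene lengths deposited with the counts. In CP CML the order from the highest was Klrd1 (125 ± 18.2 RPKM, SD, n = 8), Hcst (82.9 ± 7.22), Klrc1 (19.99 ± 3.67), Klrb1c (16.8 ± 2.27), Klrk1 (13.3 ± 1.82), Tyrobp (11.7 ± 3.50), Klrg1 (7.94 ± 1.04), Klrc2 (5.15 ± 1.06), Ncr1 (1.70 ± 0.621) and Styk1 (0.112 ± 0.050). The ranges of neighbours in this order were apart for Klrd1 and Hcst, Hcst and Klrc1, Klrc2 and Ncr1, and Ncr1 and Styk1, and overlapped for the others. In BC CML the order was Klrd1 (324 ± 39.7 RPKM, SD, n = 6), Klrc1 (112 ± 18.1), Hcst (67.1 ± 2.74), Klrb1c (49.6 ± 13.8), Tyrobp (39.9 ± 10.2), Klrc2 (34.8 ± 6.78), Klrk1 (32.5 ± 5.41), Styk1 (13.5 ± 3.25), Klrg1 (12.7 ± 2.00) and Ncr1 (6.84 ± 3.91). Here the neighbours Klrd1 and Klrc1, Klrc1 and Hcst, and Klrk1 and Styk1 were apart. Klrd1 was thus the highest member in both groups, and Styk1 went from the lowest in CP CML to a level whose range overlapped that of Klrg1 in BC CML.

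**Figure D3:**
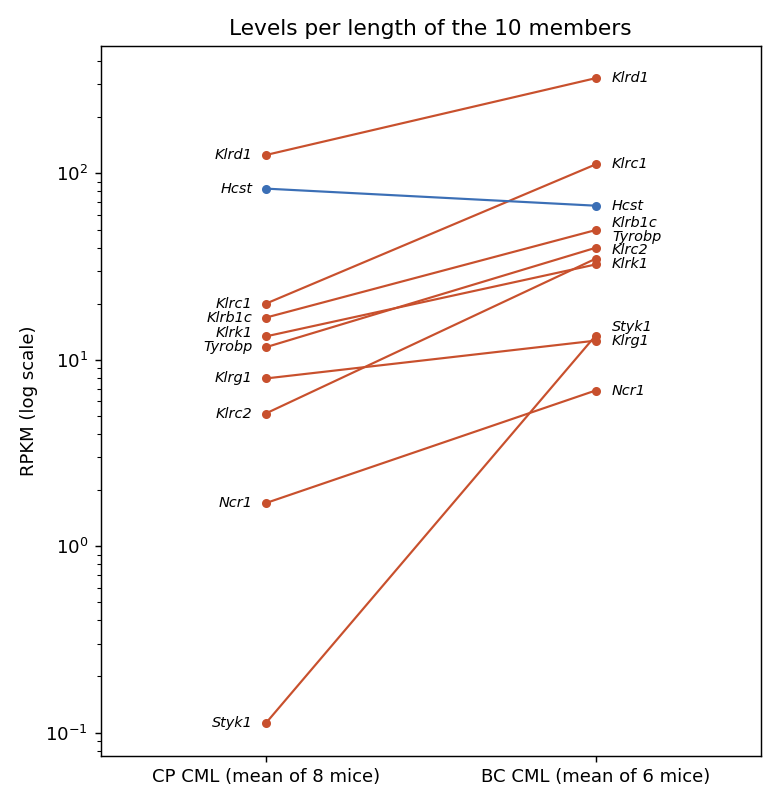
Mean level of each member per gene length in CP CML (8 mice) and BC CML (6 mice), in RPKM on a logarithmic axis, with orange lines for genes higher in BC CML and a blue line for Hcst, which is lower. Klrd1 leads in both groups (125 and 324 RPKM), and Styk1 crosses from 0.112 to 13.5 RPKM.

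The spread between mice also differed among the members. The coefficient of variation in BC CML was lowest for Hcst (4.08%) and Klrd1 (12.2%) and highest for Ncr1 (57.2%), Klrb1c (27.9%) and Tyrobp (25.7%). The highest mouse was not the same for all members. BC CML mouse 2 was the highest for Styk1, Ncr1 and Tyrobp, mouse 3 for Klrd1, Klrc1, Klrc2 and Hcst, mouse 4 for Klrk1 and Klrb1c, and mouse 1 for Klrg1. In CP CML, mouse 8 was the highest for Klrd1, Klrc1, Klrc2, Klrk1 and Ncr1 and the lowest for Klrg1. Over 24 NK receptor genes (7 members, 16 other killer lectin-like receptors and Cd244), BC CML mouse 2 was the highest of its group for 15 and CP CML mouse 8 for 14. Without these 2 mice the members' counts stayed at 8 higher and 1 lower.

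Of the 23 other killer lectin-like receptors considered, 21 were listed and 16 tested. Among those tested 15 rose and 0 fell, with a median log2 fold change of 2.18. Across all tested genes 32.6% were higher and 32.7% lower. Of the 16, Klra2, Klra8, Klra10, Klra14-ps and Klrb1a passed the filter on low counts through the BC CML libraries and not through the CP CML libraries alone, a choice that favours genes higher in BC CML. Of the 11 others 10 rose, with a median of 1.995. The Ly49 receptors of the Klra genes mostly bind class I molecules, and the 4 largest changes of the list were in Klra genes, Klra8, Klra14-ps, Klra5 and Klra3. Klra14-ps is listed as a pseudogene and had 0 to 2 reads per mouse in CP CML and 30 to 67 in BC CML. As listed, Klra14-ps and Klra9 overlap Klra8 on the same strand. Klra9 also overlaps Klra3, Klra7, Klra10 and Klra14-ps, so the counts of these genes may not be independent. Klra8 (Ly49H, an activating receptor that pairs with DAP12) had 0 to 5 reads per mouse in CP CML and 185 to 326 in BC CML, with mean levels of 0.148 ± 0.109 and 15.8 ± 3.43 CPM. It rose by 6.73 ± 0.26 on the log2 scale, a value that rests on few CP CML reads. Klra5 rose from 1.36 ± 0.41 to 72.1 ± 26.3 CPM (log2 fold change 5.73 ± 0.27), Klra3 from 2.95 ± 0.517 to 58.0 ± 5.54 CPM (4.29 ± 0.10), and Klrc3, the NKG2E gene, from 3.93 ± 1.07 to 34.0 ± 9.51 CPM (3.11 ± 0.20). Klrb1b did not pass, with 1.22 ± 0.506 CPM in CP CML and 2.21 ± 1.99 CPM in BC CML (log2 fold change 0.85 ± 0.43, quasi-likelihood adjusted p = 0.0924). The highest value of Klrb1b, 6.17 CPM, was in BC CML mouse 2, and without that mouse the log2 fold change was 0.23 (quasi-likelihood adjusted p = 0.537). Klra4, Klra6 and Klrb1-ps1 had 0 reads in every mouse, and Klra17 and Klrb1 had too few to be tested. In Klra8, 14.2% of windows of 101 bases were shared, mostly with Klra14-ps or Klra9, and in Klra3 1.85%, with Klra10, while Klra5 had 0 shared windows. Of the 16, 10 passed the test with the myeloid covariate, all higher, and the median log2 fold change of the 16 was 1.92. In that fit 2165 of all 12248 tested genes were called higher and 2209 lower.

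**Figure D4:**
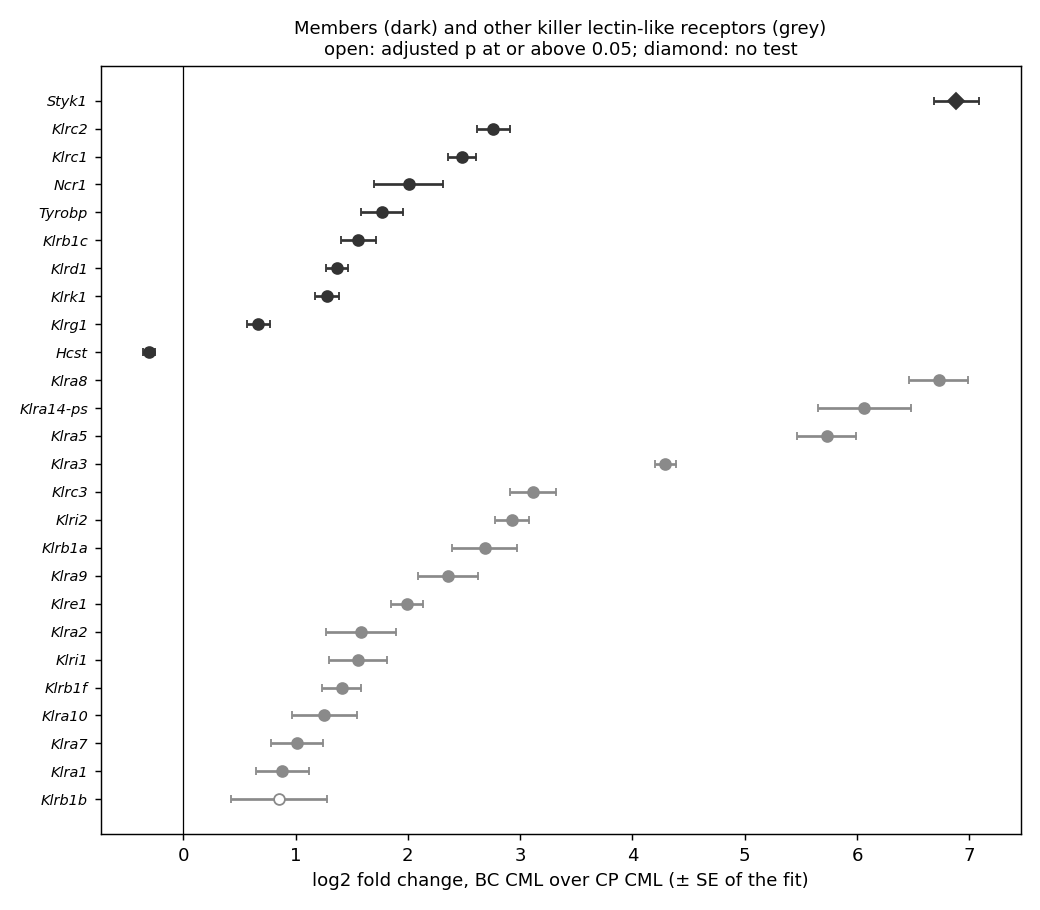
Log2 fold change of BC CML over CP CML (horizontal axis, bars ± SE of the fit) for the 10 members (dark) and the 16 tested other killer lectin-like receptors (grey). All lie to the right of 0 except Hcst at -0.30, Klrb1b is drawn open because it did not pass the test, and Styk1 is a diamond because it was not tested.

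Apart from Klrg1, which starts at base 122270597, the killer lectin-like receptors listed lie over 2.71 Mb of chromosome 6 that runs from the Klrb1 genes to Styk1. Of the 33 Klr genes listed there, 22 were tested, 21 rose and 0 fell, with a median log2 fold change of 1.79. Beside this, 32.6% of all tested genes were higher and 32.7% lower. All of the 22 except Klra23 are already counted above. Without the 5 that passed the filter through BC CML alone, 16 of 17 rose, with a median of 1.56. Of the 27 other genes apart from Styk1, 14 were tested, 11 rose and 1 fell, with a median of 0.87, or 9 and 1 of 12 with a median of 0.72 without Clec1b and Olr1, which passed the filter through BC CML alone. The nearest tested neighbours of Styk1 were also higher. Magohb, an exon junction complex gene that starts 23154 bases away, rose from 6.78 ± 0.641 to 13.9 ± 1.15 CPM (log2 fold change 1.03 ± 0.08). Klra2 rose from 0.638 ± 0.384 to 1.92 ± 0.588 CPM (1.58 ± 0.31), and its log2 fold change was 0.77 with the myeloid covariate, where it did not pass (quasi-likelihood adjusted p = 0.372). Ybx3, a cold-shock domain gene on the other side of Styk1, rose from 44.3 ± 1.76 to 115 ± 7.95 CPM (1.38 ± 0.04). The remaining genes listed within 500 kb of Styk1 had 0 reads in every mouse.

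**Figure D5:**
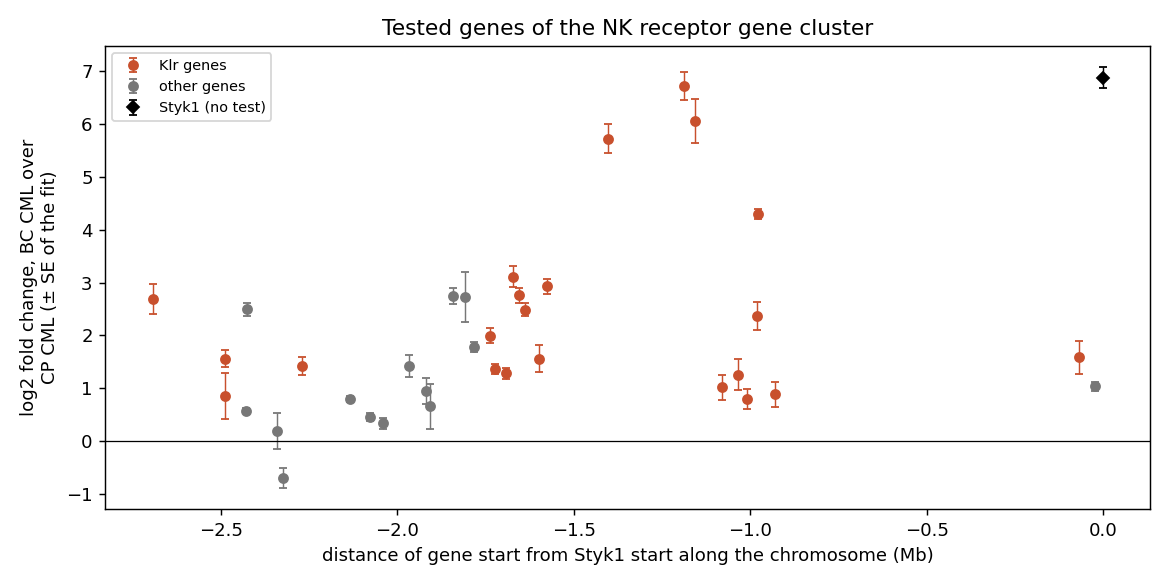
Log2 fold change of BC CML over CP CML (vertical axis, bars ± SE of the fit) of the tested genes in the receptor cluster against the distance of each gene's start from that of Styk1 in Mb. Klr genes (orange) have a median of 1.79 and other genes (grey) a median of 0.87, and Styk1 (black diamond, not tested) stands at 6.88 beside Magohb at 1.03 and Klra2 at 1.58.

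Other receptors that NK and T cells share rose as well. Of 11 tested, 10 rose and 1 fell, with a median log2 fold change of 0.88. Of all tested genes 32.6% were higher and 32.7% lower. With the myeloid covariate 7 of the 11 were called higher and 1 lower, with a median of 0.76. In that fit 2165 of all 12248 tested genes were called higher and 2209 lower. Cd244 (2B4, a SLAM family receptor for CD48) rose from 5.69 ± 1.40 to 35.9 ± 18.7 CPM (log2 fold change 2.65 ± 0.27), and its highest value, 72.5 CPM, was in BC CML mouse 2, without which the log2 fold change was 2.33. That of Cd244 was 2.04 with the myeloid covariate. Cd160, a receptor for HVEM, rose from 42.9 ± 3.38 to 204 ± 24.9 CPM (2.25 ± 0.07), and the inhibitory receptor gene Lilrb4a from 17.4 ± 1.95 to 79.0 ± 15.3 CPM (2.19 ± 0.11). Slamf7 rose from 40.8 ± 6.99 to 120 ± 22.6 CPM (1.55 ± 0.13). The 1 gene that fell, named after its value was seen, was Slamf6, from 366 ± 42.7 to 183 ± 17.3 CPM, a log2 fold change of -1.003 ± 0.079.

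Among 23 tested adapters, kinases and phosphatases that act below these receptors, 13 rose, 4 fell and 6 did not pass, with a median log2 fold change of 0.20. The share called was near the 65.2% of all tested genes. Sh2d1b1 passed the filter through BC CML alone, and without it 12 of 22 rose and 4 fell, with a median of 0.19. The FcRγ adapter gene Fcer1g rose from 8.03 ± 1.33 to 27.0 ± 7.75 CPM (log2 fold change 1.75 ± 0.16), Sh3bp2 from 18.3 ± 2.18 to 50.6 ± 6.37 CPM (1.47 ± 0.08), and Plcg2, a phospholipase, from 17.9 ± 3.83 to 49.1 ± 12.6 CPM (1.46 ± 0.16, or 0.71 with the myeloid covariate). The kinase gene Lyn rose from 17.4 ± 4.69 to 41.2 ± 8.75 CPM (1.24 ± 0.17). With the myeloid covariate the log2 fold change of Lyn was 0.55 and did not pass (quasi-likelihood adjusted p = 0.105), and of the 23 genes 8 were called higher and 3 lower, with a median of 0.19. Fcer1g, Plcg2 and Lyn are also known from myeloid and B cells. The T cell kinase gene Lck had 777 ± 82.1 and 848 ± 73.3 CPM and the kinase subunit gene Pik3cd had 909 ± 52.5 and 982 ± 110 CPM, and neither passed (quasi-likelihood adjusted p = 0.117 and 0.121). The 4 that fell, named after their values were seen, were Cd247 (log2 fold change -0.32), which encodes the CD3ζ chain used by NKp46 and the T cell receptor, Pik3r1 (-0.39), Plcg1 (-0.24), which did not pass with the myeloid covariate, and Grb2 (-0.17).

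Among the ligands of these receptors, 8 of 16 were tested, and 7 rose and 1 fell, with a median log2 fold change of 0.55, beside 32.6% of all tested genes higher and 32.7% lower. Of the 8, 5 were called higher and 1 lower with the myeloid covariate, with a median of 0.59. H2-T23, which encodes Qa-1, the ligand of CD94 with NKG2A or NKG2C, rose from 247 ± 15.1 to 365 ± 31.7 CPM (log2 fold change 0.56 ± 0.05). Clec2d, which encodes a ligand of Klrb1 family receptors, rose from 111 ± 10.8 to 193 ± 10.3 CPM (0.79 ± 0.06), and its relative Clec2i from 125 ± 6.47 to 185 ± 13.8 CPM (0.57 ± 0.05). Cdh1 encodes E-cadherin, a ligand of KLRG1, and rose from 1.62 ± 0.743 to 15.6 ± 3.04 CPM (3.27 ± 0.22, or 2.37 with the myeloid covariate). The 1 ligand that fell, named after its value was seen, was Pvr, the CD155 gene, from 47.5 ± 3.10 to 35.1 ± 3.26 CPM. Of the 5 NKG2D ligand genes in the list, 1, Ulbp1 (MULT1), was tested, and it rose from 8.13 ± 2.48 to 11.8 ± 2.21 CPM (0.54 ± 0.19, quasi-likelihood adjusted p = 0.0184) with overlap between the groups. The call of Ulbp1 was lost without BC CML mouse 2 (log2 fold change 0.43, quasi-likelihood adjusted p = 0.0539) and with the myeloid covariate (0.76, adjusted p = 0.119). The other 4, Raet1d, Raet1e, H60b and H60c, had at most 4 reads in any mouse. Ulbp1 was also named after its value was seen.

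Of 19 tested transcription factor and cytokine receptor genes of NK and effector T cells, 13 rose, 5 fell and 1 did not pass, with a median log2 fold change of 0.45, beside 32.6% of all tested genes higher and 32.7% lower. Of the 19, 9 were called higher and 3 lower with the myeloid covariate, with a median of 0.47. Il12rb2, an interleukin-12 receptor subunit gene, rose from 16.2 ± 2.16 to 88.8 ± 12.2 CPM (log2 fold change 2.46 ± 0.09), and the T-box factor gene Eomes from 77.6 ± 14.2 to 257 ± 25.4 CPM (1.73 ± 0.11). Zeb2, a zinc-finger repressor known from terminally differentiating effector cells, rose from 8.71 ± 3.20 to 27.6 ± 6.32 CPM (1.66 ± 0.22), and its log2 fold change was 0.73 with the myeloid covariate, where it did not pass (quasi-likelihood adjusted p = 0.0925). Zbtb16, which encodes PLZF, the factor of NKT and other innate-like T cells, fell from 9.24 ± 1.58 to 1.93 ± 1.16 CPM, a log2 fold change of -2.28 ± 0.24, or -2.65 without BC CML mouse 2, the highest of its group. The other 4 that fell, named after their values were seen, were Prdm1 (-0.88), Ets1 (-0.52), Il18rap (-0.48) and Il18r1 (-0.32), and with the myeloid covariate Prdm1 was at -0.48 and Il18rap and Il18r1 did not pass. Bcl11b, the T lineage factor gene, had 418 ± 24.5 and 397 ± 22.8 CPM and did not pass (quasi-likelihood adjusted p = 0.146).

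Promoters from 250 bases before to 50 bases after the start were at hand from RefSeq (GRCm38.p6) for 6 of the members: Klrb1c, Klrk1, Klrc2, Klrc1, Ncr1 and Hcst. They were searched on both strands for a T-box motif (GGTGTGA or TCACACC), which Eomes and Tbx21 proteins recognise, and for a Runx motif (TGTGGTT or AACCACA). The T-box letters were in 0 of the 6 and in 3.98% of 32851 promoters of the same length. The Runx letters were in 2 of the 6, Klrk1 and Ncr1, and in 5.27% of all promoters, and they start 129 bases before the start of Klrk1 and 176 bases before that of Ncr1. These promoters are shown with the match in capitals. A match is not evidence of binding, and no binding was measured.
Klrk1, chr6:129623815-129624114, minus strand: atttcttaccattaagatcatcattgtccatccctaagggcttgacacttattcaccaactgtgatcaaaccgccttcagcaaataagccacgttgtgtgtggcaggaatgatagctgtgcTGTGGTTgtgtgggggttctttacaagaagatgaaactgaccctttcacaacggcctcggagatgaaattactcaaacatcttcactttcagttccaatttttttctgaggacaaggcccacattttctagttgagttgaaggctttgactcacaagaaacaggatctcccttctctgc
Ncr1, chr7:4337465-4337764, plus strand: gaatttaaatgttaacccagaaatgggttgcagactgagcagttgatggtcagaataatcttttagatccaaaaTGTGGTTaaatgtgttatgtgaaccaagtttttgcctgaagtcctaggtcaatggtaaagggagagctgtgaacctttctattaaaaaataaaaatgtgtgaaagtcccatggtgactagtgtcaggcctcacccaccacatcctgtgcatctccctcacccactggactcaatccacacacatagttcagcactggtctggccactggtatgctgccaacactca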

How the data were processed

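Spleen T cells of 8 CP CML and 6 BC CML mice were compared. The authors trimmed the paired reads of 101 bases with Trimmomatic and FASTP, aligned them to mm10 with STAR 2.6.0, counted reads per gene with HTSeq 0.11.1 and deposited the unnormalized counts, gene positions and gene lengths of 24091 genes. The annotation used and the strand setting are not given in the sources used here. Counts were fitted with edgeR 4.0.16 in R 4.3.3 (filterByExpr, TMM, robust quasi-likelihood test, Benjamini-Hochberg adjustment, threshold 0.05), after the script had been tested on simulated data. The filter was also run on each group alone, to find genes kept through BC CML only. CPM and RPKM were computed from the counts with TMM factors and the deposited lengths. Pairs of libraries of a group differed by more than sampling noise, with a chi-square per degree of freedom of at least 2.99.

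The members and lists were chosen with earlier results of these data known. Beside the members, each list names the 4 called genes with the largest absolute log2 fold change with an average of 1 log2 CPM or more, and at most 2 that did not pass, those with the highest average, and Mir142, markers, overlapping genes and tested genes within 500 kb of Styk1 are named. The fits were repeated with DESeq2 1.42.0, the likelihood ratio test, unscaled library sizes, RLE factors, 2 other filters, the replicate number as a block, a myeloid covariate, each sample left out, and, chosen after seeing the data, mice CP CML 8 and BC CML 2 left out together.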

Additional observations from a re-analysis of the deposited data

Results flagged for a closer look

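A mouse far from the others of its group was looked for in 128 groups of values (the named genes, marker sums, ratios and total reads in each group), by the gap to the nearest mouse as a share of the group's range. Chance flags about 1 in 20, and 15 were flagged. BC CML mouse 2 accounts for most of them. It was the highest for Ncr1 (22.1 CPM against 10.8 CPM in the next mouse, a gap of 0.6697 of the range), Klrb1b (6.17 against 1.84 CPM, 0.7668), Cd244 (72.5 against 37.3 CPM, 0.6955), Zbtb16 (4.24 against 1.73 CPM, 0.7931), Cd163l1 (122 against 38.4 CPM, 0.8258), the γδ marker sum (148 against 45.5 CPM, 0.8346), and the ratios of Tyrobp to Lyz2 (0.167 against 0.112, 0.685) and of Ncr1 to Klrd1 (0.0706 against 0.0328, 0.6843). It also had the fewest reads of its group, 16145537 against 18319039 in the next (0.6679).

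BC CML mouse 3 was the highest for Cd8b1 (550.4 against 455 CPM, 0.6977). In CP CML, mouse 8 was the highest for Klra5 (2.26 against 1.51 CPM, 0.5736) and Cdh1 (3.21 against 1.83 CPM, 0.5489) and the lowest for Cd4 (352 against 397 CPM, 0.5469), and mouse 2 was the lowest for Klrk1 (31.4 against 44.2 CPM, 0.6255) and Magohb (5.37 against 6.48 CPM, 0.5477). The log2 fold change of Ncr1 stayed past the threshold without BC CML mouse 2, and that of Klrk1 without CP CML mouse 2.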

How the results depend on the processing

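The 9 tested members kept 9 calls with each mouse left out, and under the likelihood ratio test, DESeq2, RLE factors, library size alone and both other filters. With the myeloid covariate 7 calls were left, those of Ncr1 and Hcst being lost, the calls over all genes went from 7986 to 4374 and those of the adapters, kinases and phosphatases from 17 to 11. The median log2 fold change of the other killer lectin-like receptors was 1.92 there against 2.18, and that of the other receptors of NK and T cells 0.76 against 0.88. Without BC CML mouse 1, 4 or 5, 9 of the 11 latter genes were called higher in place of 10. Leaving out 1 mouse gave 7721 to 7966 calls over all genes and 16 to 18 for the adapters, kinases and phosphatases. The log2 fold change of Styk1 stayed between 6.75 and 7.10 in all settings. Each setting refits the libraries by which Styk1 was chosen, so this range is a description and no support for its rise. Among single genes, the covariate also ended the calls of Lyn, Zeb2, Klra2, Cd163l1, Ulbp1, Plcg1, Il18rap and Il18r1 and gave 1 to Pik3cd (for Cd163l1 the log2 fold change was still 2.06 against 2.34, with an SE of 0.80 against 0.38), and leaving out a mouse ended that of Ulbp1 (without BC CML mouse 2) and gave a call to Klrb1b (without BC CML mouse 3), Sox13 (without BC CML mouse 4), Pik3cd (without BC CML mouse 5 or 6) and Lck (without CP CML mouse 5). The log2 fold change of Klrb1b, 0.85, was 0.23 without BC CML mouse 2 and -0.08 with the covariate, not called in either. None of the results changed direction past the threshold. The covariate includes Fcer1g, and its values move with the groups.

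The groups share the replicate numbers 1 to 6, but the mice are different animals, the correlation of their deviations from the group means ran from -0.321 to 0.387 and 1 of 6 BC CML mice was closest to its own number. With the replicate number as a block 7318 genes and all 9 members were called, and among the single genes Ulbp1 lost its call (0.45, edgeR quasi-likelihood adjusted p = 0.096). Depth limits Styk1 and Klra8 in CP CML, where a mouse had at most 12 and 5 reads.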
